A study of Mus musculus with 4 samples.

Results

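The Notch pathway was read in developing mouse molars through 10 genes: the receptors Notch1, Notch2, Notch3 and Notch4, the ligands Jag1, Jag2 and Dll1, the glycosyltransferase Lfng, and the target genes Hes1 and Hey1. Every probe set whose annotation names exactly 1 of these genes was taken, which gave 19 of the 34945 probe sets that name a single gene and 10 of 18193 genes. The material was 1 pool of molars pulled from 60 Swiss Webster pups of both sexes, aged 1 to 10 days after birth, with no genetic change or treatment stated in the labels. Its RNA was hybridised to 4 Affymetrix Mouse Genome 430 2.0 arrays, which report each transcript through sets of short oligonucleotide probes (probe sets), and the 4 arrays form 1 group. Since all of them carry RNA of 1 pool, the SDs given here measure technical spread alone, and no difference between animals, ages or cell types can be read from them. The control tissues that the study's design sets against these arrays are not analysed here.

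Notch receptors are single-pass membrane proteins that are switched on by a ligand of the Jagged or Delta-like family on a neighbouring cell. Ligand pulling exposes the receptor to an ADAM protease and then to gamma-secretase, the released intracellular part joins Rbpj and a Mastermind coactivator on DNA, and genes of the Hes and Hey families of repressors are switched on. Fringe enzymes such as Lfng lengthen sugars on the receptor and so alter which ligand it answers to. In teeth the pathway is known from the enamel organ, where Notch1 is found in the stratum intermedium and Jag2 in the neighbouring inner enamel epithelium, and mice with mutant Jag2 have malformed teeth.

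Of the 10 genes, 9 were above background on every array by at least 1 probe set (90%), and Notch4 was the exception. By probe set the count was 14 of 19 (73.7%). Above background means above the array's 95th percentile of 86 probe sets for olfactory, vomeronasal and taste receptor genes, a threshold of 996, 1097, 1295 and 1266 signal units on arrays 1 to 4. Over the whole array the same rule called 51.6% of genes and 42.5% of probe sets. A gene with more probe sets has more chances to be called, so the shares were also taken by number of probe sets. The 3 members with 1 probe set all passed, against 35.2% of all such genes. The 5 members with 2 probe sets all passed, against 60.1%, and 1 of the 2 members with 3 probe sets passed, against 73.4%. These are descriptions of 10 genes chosen by name, with earlier results of these data known. The shares of the members are therefore not a test of the group. How brightly a probe set shines also depends on its probes, so signals of different probe sets are not read as relative amounts of mRNA.

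**Figure D1:**
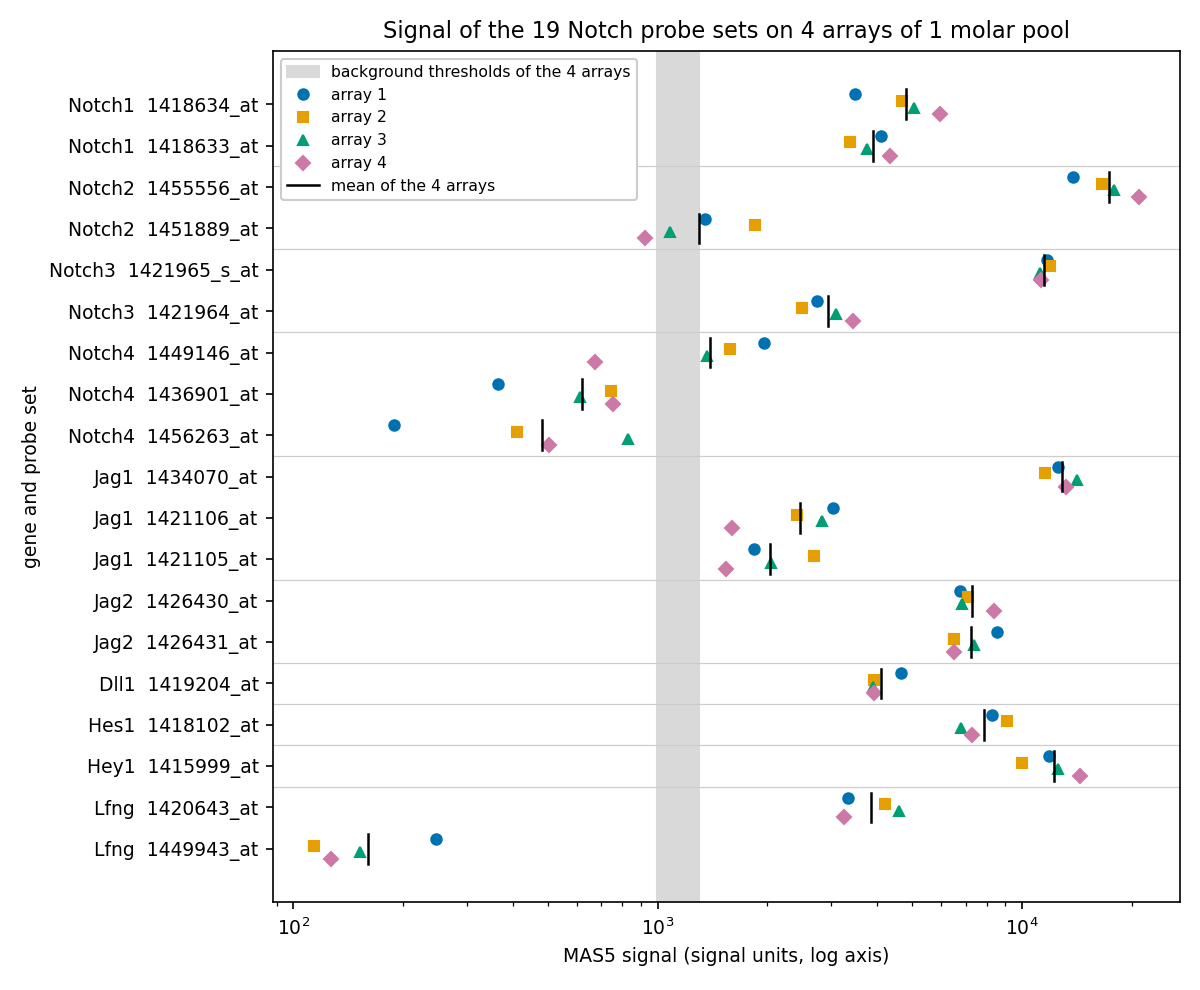
MAS5 signal in signal units on a log axis for the 19 probe sets of the 10 Notch genes, with a symbol for each of the 4 arrays, a vertical bar at their mean and a grey band spanning the arrays' background thresholds (996 to 1295). The 14 probe sets above background lie to the right of the band on every array, while the 3 Notch4 probe sets, 1 of Notch2 and 1 of Lfng lie in, across or to the left of it.

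Among the receptors, Notch1, Notch2 and Notch3 were above background and Notch4 was not. Notch1, which drives cell fate choices in many epithelia, had signals of 3477, 4688, 5043 and 5952 on arrays 1 to 4 with probe set 1418634_at, a mean of 4790 ± 1025 (SD, n = 4). Its other probe set, 1418633_at, gave 4091, 3373, 3744 and 4349, a mean of 3889 ± 424. Every value of both probe sets was at least 2.89 times the threshold of its array. The probe sets ordered the arrays differently: array 1 was the lowest for 1418634_at and the second highest for 1418633_at. The SD of 1418634_at on the log2 scale was 0.32, larger than that of 91.9% of the 2242 probe sets of like brightness.

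Notch2, a receptor with broad roles in mesenchyme and epithelium, was above background by 1 of its 2 probe sets. With 1455556_at it had 13802, 16575, 17928 and 20892 signal units on arrays 1 to 4, a mean of 17299 ± 2947 (SD, n = 4), and lay between 13.8 and 16.5 times over the threshold. With 1451889_at it had 1349, 1852, 1082 and 924, a mean of 1302 ± 407, and passed the threshold on 2 of the 4 arrays. Array 4 gave the highest value of the brighter probe set and the lowest of the dimmer one. The call of Notch2 as above background rests on 1455556_at alone.

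Notch3, the receptor known from pericytes and smooth muscle of vessels, had 11696, 11902, 11192 and 11245 signal units on arrays 1 to 4 with 1421965_s_at, a mean of 11509 ± 346 (SD, n = 4). The 4 arrays hardly differ here: the SD of 0.043 on the log2 scale was smaller than that of most probe sets of like brightness, of which 2.70% had a smaller one. This is the only one of the 19 probe sets whose suffix marks sequence shared between transcripts. The other probe set, 1421964_at, gave 2732, 2483, 3086 and 3437, a mean of 2934 ± 417, and was also over the threshold on all 4 arrays, by at least 2.26 times. Notch3 therefore passed with and without the probe set of shared sequence.

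Notch4, the receptor known chiefly from endothelium, had no probe set above background on all 4 arrays. Its brightest, 1449146_at, gave 1962, 1580, 1369 and 672 signal units on arrays 1 to 4. Arrays 1, 2 and 3 were over their thresholds, at most 1.97 times, and array 4 was at 0.53 of its threshold. The fitted log2 ratio of signal to threshold was 0.17 with a standard error of 0.26, and limma, fitted over all probe sets, gave an adjusted p of 0.578. The other probe sets were under the threshold on every array, with 364, 744, 614 and 752 for 1436901_at and 189, 410, 827 and 504 for 1456263_at. Without array 4, Notch4 counted as above background. A failure to pass says nothing on whether the gene was off.

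Endothelium was present in the pool by its own markers. All 8 endothelial markers were above background, against 51.6% of all genes. The lowest were Tie1 and Tek, at 1.39 and 1.52 times the threshold (geometric mean of 4 arrays). Egfl7, a secreted vessel protein, had 7975 ± 377 signal units and the adhesion gene Esam had 4769 ± 722 (SD, n = 4). Cdh5 (VE-cadherin) had 4429 ± 455 and Pecam1 had 2587 ± 118. The Cdh5 call rests on 1 of its 2 probe sets and is lost when the median probe set stands for the gene. Dll4, the Delta-like ligand of sprouting vessels, had 1118, 1058, 1732 and 617 on arrays 1 to 4 and passed on 2 arrays. Mural cells, where Notch3 is known, had 6 of 8 markers above background, with Acta2 at 29157 ± 1468 and Rgs5 at 25111 ± 651. The Acta2 call rests on 1 of its 3 probe sets, which has shared sequence, and is lost without it. Among the others, Des passed on 3 arrays and Myh11 on 0. In a pool of whole teeth, fewer cells of a type and less RNA per cell cannot be told apart, and no Notch signal was assigned to a cell type.

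The promoter windows of the receptors differ in base composition. RefSeq windows of GRCm38.p6, running from 250 bases before to 50 bases after a gene's start, matched 8 of the 10 members in 9 windows. Hes1 and Hey1 had none. The Notch4 window held 5 CpG dinucleotides, the Notch1 and Notch3 windows 23 and 25, and the Notch2 window 41, where the median of all 32851 windows was 7. The windows of Notch4 and Notch2 are shown as the receptors with the fewest and the most, with each CpG in capitals. Notch4 lies at chr17:34564045-34564344 and Notch2 at chr3:98013288-98013587, both on the plus strand.
Notch4: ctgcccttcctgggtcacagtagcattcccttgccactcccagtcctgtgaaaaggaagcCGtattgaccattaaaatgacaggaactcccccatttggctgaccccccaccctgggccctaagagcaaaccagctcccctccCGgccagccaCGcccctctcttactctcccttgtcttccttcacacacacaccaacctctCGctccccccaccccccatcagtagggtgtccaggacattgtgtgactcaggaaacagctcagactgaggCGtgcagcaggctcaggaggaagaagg
Notch2: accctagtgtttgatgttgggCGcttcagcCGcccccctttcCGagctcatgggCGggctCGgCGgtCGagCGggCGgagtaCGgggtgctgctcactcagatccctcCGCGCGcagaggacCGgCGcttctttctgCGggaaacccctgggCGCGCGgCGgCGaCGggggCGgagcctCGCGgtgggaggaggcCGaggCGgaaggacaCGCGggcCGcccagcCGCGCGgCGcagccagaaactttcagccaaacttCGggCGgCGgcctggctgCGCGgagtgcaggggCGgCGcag
The other member windows had 22 (Jag1 and Lfng), 63 (Jag2), and 24 and 15 (Dll1, with 2 starts) CpG. The 14452 genes with a window were classed by their window with the most CpG. Of the 2873 genes with 5 or fewer CpG, 13.2% were above background. The share was 38.4% of the 3045 with 6 to 14 and 71.4% of the 8534 with 15 or more. Notch4, the member with the fewest CpG, falls in the first class and the 7 other matched members in the last. The first class ends at the count of Notch4 itself, so its place there depends on the chosen limit. The comparison sets base composition beside the calls and tests nothing about Notch4.

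All 3 ligands, and all 6 of their probe sets, were above background. Jag1, a ligand that is needed in vessels, bone and the inner ear, had 12555, 11589, 14196 and 13229 signal units on arrays 1 to 4 with 1434070_at, a mean of 12892 ± 1099 (SD, n = 4). Its other probe sets were far dimmer, with 3021, 2405, 2828 and 1600 for 1421106_at and 1843, 2684, 2048 and 1536 for 1421105_at. On the same array 1434070_at was 4.16 to 8.27 times as bright as 1421106_at. Array 4 was the lowest for both dim probe sets, at 1.26 and 1.21 times the threshold, but not for the bright one. The limma adjusted p-values ran from 6.73e-15 for 1434070_at to 0.000786 for 1421105_at, so all 3 passed while their margins differed widely.

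Jag2, the ligand known from the ameloblast layer, had probe sets of near equal brightness. With 1426430_at it had 6763, 7125, 6855 and 8386 signal units on arrays 1 to 4, a mean of 7282 ± 752 (SD, n = 4). With 1426431_at it had 8542, 6518, 7389 and 6507, a mean of 7239 ± 962. The ratio of the probe sets averaged 1.03 ± 0.215 over the arrays and ran from 0.792 to 1.29, so neither was the brighter one throughout. Array 4 was the highest for 1426430_at and the lowest for 1426431_at.

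Dll1, the Delta-like ligand of the segmentation and neural programmes, had a single probe set, 1419204_at. It gave 4661, 3924, 3899 and 3930 signal units on arrays 1 to 4, a mean of 4104 ± 372 (SD, n = 4), and was 3.01 to 4.68 times over the threshold. Arrays 2, 3 and 4 were nearly equal and array 1 lay above them. The limma adjusted p was 1.07e-09.

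Lfng (lunatic fringe) was called on 1 of its 2 probe sets. With 1420643_at it had 3331, 4221, 4589 and 3238 signal units on arrays 1 to 4, a mean of 3845 ± 665 (SD, n = 4), and every array was at least 2.56 times over its threshold. With 1449943_at it had 246, 114, 152 and 127, at most 0.247 of the threshold. Without the genome, the place of each probe set on the transcript was not looked at.

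The Lfng promoter window is shown because it was the only member window with the Rbpj core motif. The motif searched was TGGGAA on both strands, and 25.6% of all 32851 windows of the same length hold it. The Lfng window, at chr5:140607091-140607390 on the plus strand, holds it in each orientation, with the minus-strand match beginning 135 bases and the plus-strand match 108 bases before the gene's start.
Lfng: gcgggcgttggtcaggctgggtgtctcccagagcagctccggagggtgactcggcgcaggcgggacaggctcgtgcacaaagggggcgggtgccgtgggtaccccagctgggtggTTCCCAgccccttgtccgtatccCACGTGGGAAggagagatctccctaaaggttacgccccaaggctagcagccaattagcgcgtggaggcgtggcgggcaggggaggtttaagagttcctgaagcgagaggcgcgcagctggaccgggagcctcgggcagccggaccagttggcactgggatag
Capitals mark both core motifs and the E-box CACGTG, a palindrome bound by many basic helix-loop-helix proteins, which overlaps the plus-strand core by 2 bases. The E-box was in 7.15% of all windows and in 1 of the 9 member windows. The N-box CACNAG, bound by Hes proteins and searched on both strands, was in 42.5% of all windows and in 5 of the 9 member windows, those of Notch1, Notch2, Notch3, Dll1 and Lfng. These matches describe letters in a short window and are not evidence of binding.

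Both target genes were above background, each with a single probe set. Hes1, the repressor most often used as a readout of Notch activity, had 8270, 9083, 6801 and 7273 signal units on arrays 1 to 4 with 1418102_at, a mean of 7857 ± 1021 (SD, n = 4). Hey1, a related repressor of vessels, heart and bone-forming cells, had 11869, 10025, 12528 and 14410 with 1415999_at, a mean of 12208 ± 1810. Hes1 was 5.25 to 8.31 times over the threshold and Hey1 9.14 to 11.9 times, with limma adjusted p-values of 2.12e-12 and 1.48e-14. Array 2 was the highest for Hes1 and the lowest for Hey1. Both genes also answer to signals other than Notch, such as BMP for Hey1.

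The other Hes and Hey genes, grouped here with Bhlhe40 and Bhlhe41, were mostly not above background. Of the 9 measured in this group, 3 passed on all 4 arrays (33.3%), against 51.6% of all genes. The group mixes genes with 1, 2 and 3 probe sets. Of all such genes 35.2%, 60.1% and 73.4% passed, so the 33.3% is not read as a deficit. Heyl, known from smooth muscle, had 4980, 5087, 4936 and 4966 signal units on arrays 1 to 4, a mean of 4992 ± 66.0 (SD, n = 4), and all 3 of its probe sets passed. Bhlhe40, a stress and clock repressor, had 2691 ± 605, and Hes6, which antagonises Hes1, had 2288 ± 446, with 1 of its 2 probe sets over the threshold. Hes5, the Notch target of neural progenitors, had 380, 467, 265 and 471 and passed on 0 arrays, as did Hes2 at 151 ± 68.7 and Bhlhe41 at 535 ± 369. By brightest probe set, the median gene of the 9 lay under the threshold, while the median was 6.51 times the threshold for the 10 members and 1.43 times for all genes, which describes signal over background and not amounts of mRNA.

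Of the 6 other ligands only Dlk1 was above background on all 4 arrays (16.7%), against 51.6% of all genes. Dlk1, an imprinted Delta-like protein without the domain that activates Notch, had 12375, 12503, 12300 and 13901 signal units on arrays 1 to 4, a mean of 12770 ± 759 (SD, n = 4). That reading comes from a probe set of shared sequence, and the other Dlk1 probe set did not pass. Dlk2, its relative, had 1736 ± 616 and passed on 3 arrays, and Cntn1, a neural adhesion protein described as a Notch ligand, had 1115 ± 192 and passed on 1 array.

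**Figure D2:**
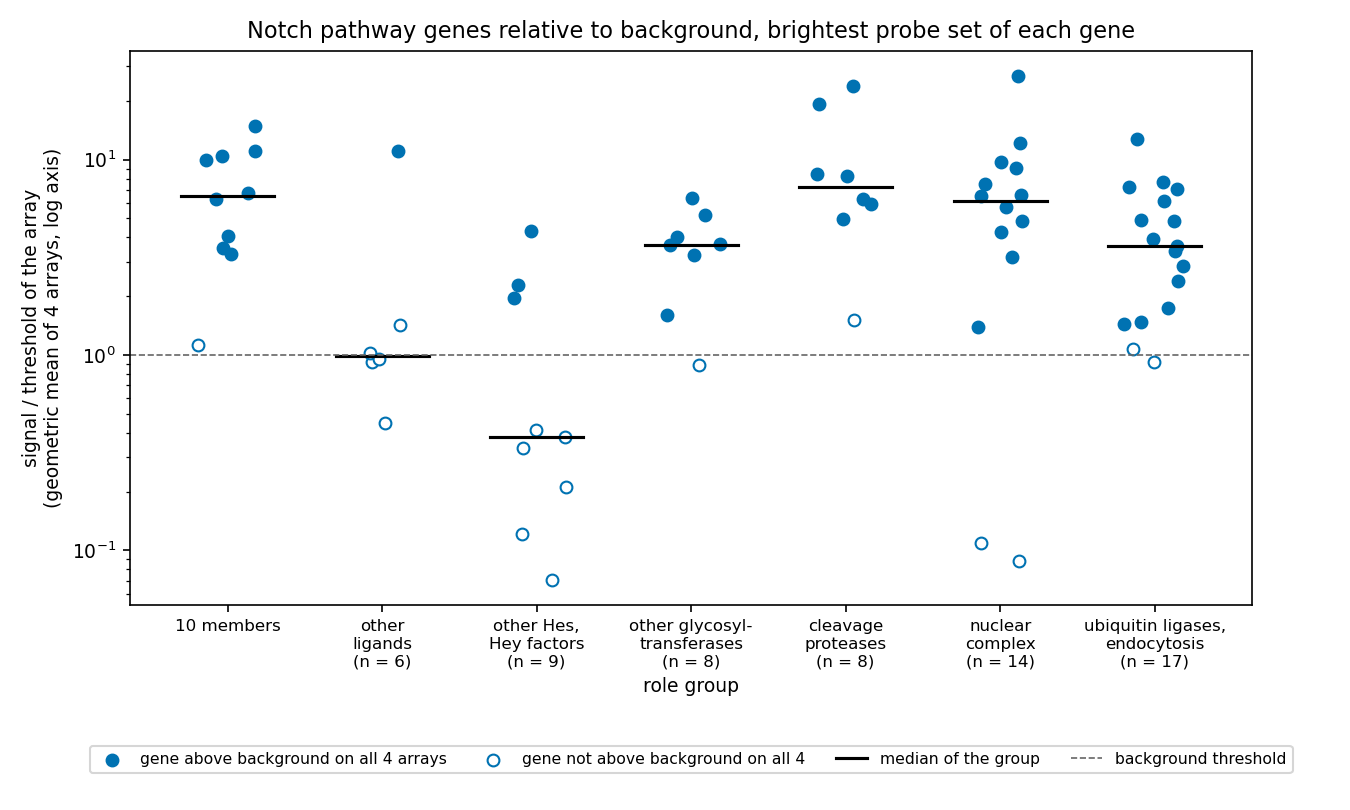
Ratio of signal to the array's background threshold (geometric mean of 4 arrays, log axis) for the brightest probe set of each gene, with the 10 members at the left and 6 groups of other Notch pathway genes to the right. Filled points are genes above background on all 4 arrays and bars are group medians. The median is 6.51 for the members and lies under the threshold for the other Hes and Hey factors. In that group, which includes Bhlhe40 and Bhlhe41, 6 of 9 genes are open points.

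The enzymes and cofactors that act on all receptors were above background for most of the genes measured. The same rule called 51.6% of all genes, and 60.1% and 73.4% of those with 2 and 3 probe sets. Of 8 proteases and gamma-secretase subunits 7 passed, with Adam10, the protease of the first ligand-dependent cut, at 27837 ± 3882 signal units, the gamma-secretase subunit genes Psenen at 22285 ± 2587 and Ncstn at 9841 ± 933 (SD, n = 4). The Ncstn call rests on 1 of its 2 probe sets and is lost when the median probe set stands for the gene. Psen2, a catalytic subunit, had 2252, 1714, 2029 and 1199 on arrays 1 to 4 and missed the threshold on array 4 alone, and limma called it with an adjusted p of 0.0114. Of 14 nuclear genes 12 passed. Ctbp1 and Hdac1, corepressors, had 31091 ± 2142 and 14088 ± 376, and the coactivator Crebbp had 11430 ± 1984. Rbpj, the DNA-binding partner of every Notch receptor, had 5557, 5649, 5684 and 5562, a mean of 5613 ± 63.4, with all 3 of its probe sets over the threshold. Nrarp, a Notch target that limits the pathway, had 7660 ± 1332 and both of its probe sets passed. Maml2, a Mastermind coactivator, had 146 ± 76.7 and Rbpjl, an Rbpj relative of pancreas and brain, 215 ± 320, and both passed on 0 arrays.

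Glycosyltransferases other than Lfng were above background for 7 of 8 genes (87.5%), against 51.6% of all genes. Rfng (radical fringe) had 6019 ± 281 signal units with both probe sets over the threshold, whereas Mfng (manic fringe) had 940, 1551, 622 and 1243 on arrays 1 to 4 and passed on 1 array. Poglut1, which adds glucose to the EGF repeats of Notch, had 4693 ± 742, and Gxylt2, which extends that glucose, had 7441 ± 1080 (SD, n = 4). Of the fringe family, Lfng and Rfng thus passed and Mfng did not.

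Ubiquitin ligases and endocytic regulators were above background for 15 of 17 genes (88.2%), against 51.6% of all genes. Mib1, the ligase that makes ligands competent in the sending cell, had 8390 ± 793 signal units, the endocytic adaptor gene Epn1 had 8932 ± 913, and Aak1, a kinase of clathrin coats, had 14749 ± 1150 (SD, n = 4). Aak1 rested on 3 of its 7 probe sets. Neurl1a and Neurl1b, ligases related to fly neuralized, had 1254 ± 164 and 1092 ± 255 and passed on 3 and 2 arrays. Across all 62 pathway genes outside the members 45 were above background (72.6%), against 51.6% of all genes. Many of the 62 have several probe sets, and their share was not split by that number. With the median probe set standing for each gene, 54.8% of the 62 passed, against 34.7% of all genes. The median of the 62 was 3.67 times the threshold. These genes too were listed with earlier results of these data known.

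When limma was used to test, one-sidedly, whether the log2 ratio of signal to threshold exceeded 0, with a Benjamini-Hochberg adjusted p under 0.05, it also called 9 member genes and 14 member probe sets, the same ones. The test called 51.0% of all genes and 42.0% of all probe sets. The test takes each array's threshold as known and its error is that between arrays of 1 pool. It is not known here whether labelling was repeated for each array.

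The spread between arrays differed from probe set to probe set. Among the 14 probe sets above background, the SD of log2 signal ran from 0.043 to 0.41 with a median of 0.20, or 1.15-fold, beside 0.17 for all 14840 probe sets above background. The SD was 0.25 for Notch2 1455556_at, larger than that of 90.9% of probe sets of like brightness. The 5 member probe sets not above background had a median SD of 0.49. Between pairs of arrays the median difference of the 14 was 1.12-fold to 1.27-fold, and the widest was 1.89-fold, between arrays 1 and 4 for Jag1 1421106_at. The array farthest from the probe set's mean was array 2 in 6 of the 14, array 1 in 4, array 4 in 3 and array 3 in 1. Array 4 held the highest value of 6 of the 14 and the lowest of 4. Its median absolute deviation was 0.22 on the log2 scale, against 0.076 to 0.15 on the other arrays. For all probe sets above background that figure was 0.13 on array 4 and 0.098 to 0.11 on the others. No member probe set changed its call when array 4 was left out except Notch4 1449146_at.

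**Figure D3:**
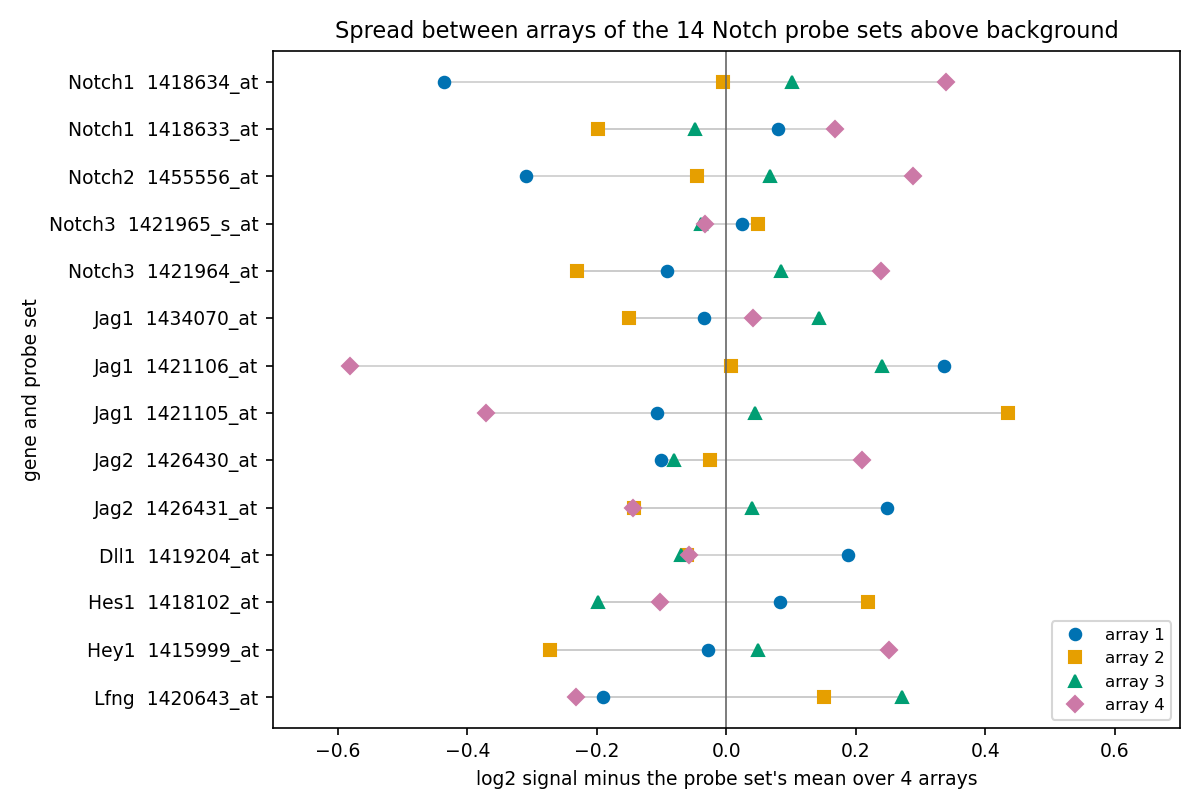
Log2 signal of the 14 Notch probe sets above background minus the mean of the probe set over the 4 arrays, with a symbol for each array. The points span 0.089 for Notch3 1421965_s_at and 0.92 for Jag1 1421106_at on the log2 scale, and array 4 is at an end of the span in 10 of the 14 rows.

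The pool carried the markers of its label and of neighbouring tissue. For comparison, the same rule called 51.6% of all genes. All 7 enamel markers, all 7 measured dental epithelium markers and all 6 dentin markers were above background, with Amelx at 198666 ± 42644, Krt5 at 117973 ± 13649 and Col1a2 at 195252 ± 30587 signal units (SD, n = 4). Oral and cornified epithelium passed for 6 of 7 markers (Krt4 at 52269 ± 6646, with Ivl on 0 arrays). Skeletal muscle passed for 7 of 8 (Acta1 at 20889 ± 1385, with Myod1 on 0 arrays), and for 6 of 8 by limma. Macrophages passed for 5 of 5 (Csf1r at 20413 ± 2425). Notch genes are known in several of these cell types as well, and their part in the member signals was not tested.

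**Figure D4:**
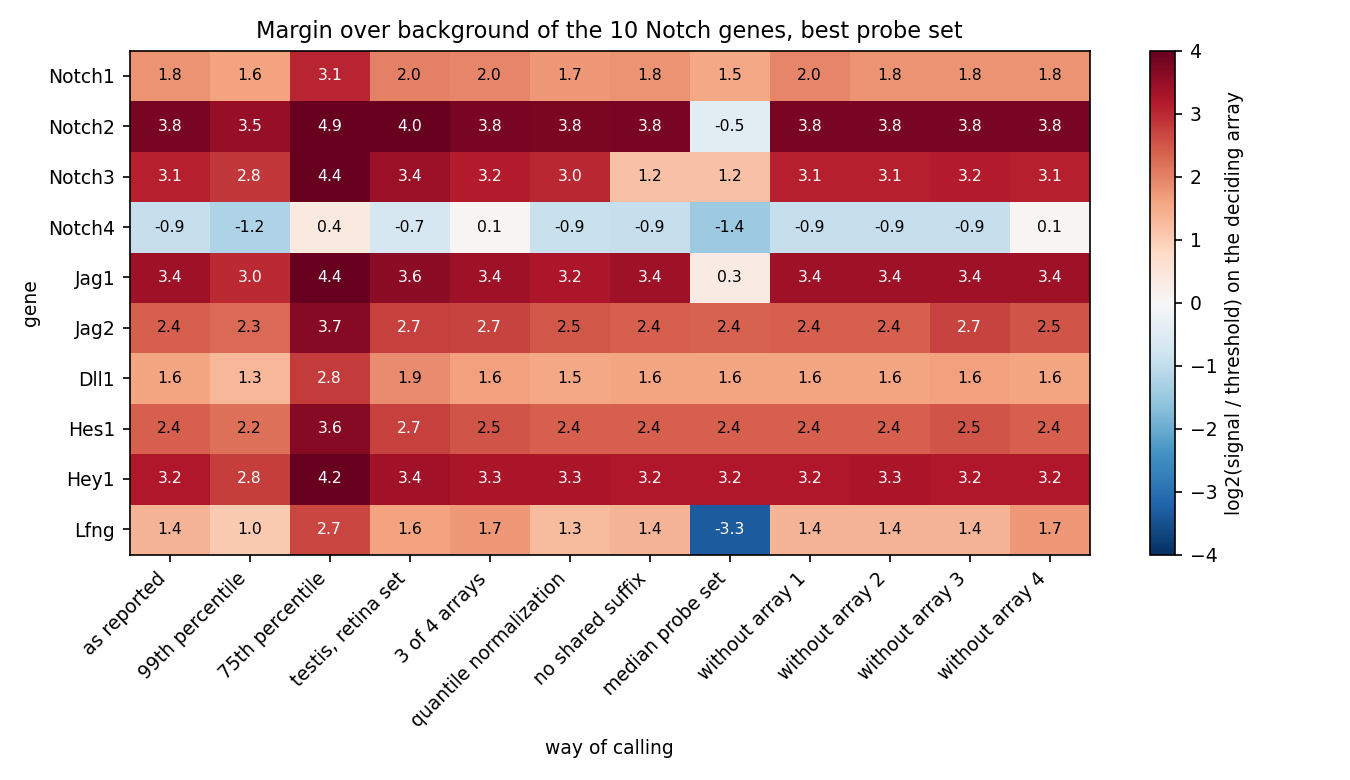
Log2 ratio of signal to threshold on the array that decides the call, for each of the 10 Notch genes (rows) under the reported rule and 11 other ways of calling (columns), for the best probe set that each way allows. Positive cells (red) count as above background; Notch4 is negative in 9 of the 12 columns, and Notch2 and Lfng are negative only when the median probe set stands for the gene.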

How the data were processed

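Molar RNA of 1 pool was measured on 4 arrays. The deposited values are signal intensities of 45101 probe sets on a linear scale. MAS5 made them, per the submitters' processing notes; low signals are noisy because it subtracts the estimate from mismatch probes, and neither its version nor its settings nor its detection calls are known here. Without the lowest and highest 2%, the mean deposited intensity was 2499 on each array, so the arrays had been scaled linearly to 1 target and were not normalised again. Arrays have no read depth, and their number limits the precision.

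The platform annotation names 1 gene for 34945 probe sets, several for 932 and none for 9211, and 64 control probe sets were left out. The gene IDs of the 10 members matched RefSeq. Replicate numbers come from the titles, since every description says replicate 1.

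Each signal was compared with the background threshold of its array, and limma 3.58.1 in R 4.3.3 fitted log2(signal / threshold) over all 34945 probe sets with a mean-variance trend. The probe set with the highest mean on the log2 scale stands for a gene where 1 value is shown. On simulated data, the rule called 94% and limma 36% of probe sets set at 1.5 times the threshold. Both called 100% of those set at 2, 4 or 8 times. Each level had 50 probe sets, and 34745 of the 34945 were drawn from background. The adjusted limma cut-off was therefore stricter there than in the real data, where limma called 42.0% of probe sets. The 36% is not the share that limma would call at 1.5 times in the real data. Of probe sets drawn from background, the rule called 0.443% and limma 0.00863%. These last shares are low partly by design, since the draws came from the receptor probe sets that set the threshold. Members and lists were chosen with earlier results of these data known. Of the other pathway genes listed, 62 are reported and the rest are not analysed here.

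The text names all members, up to 3 genes above background with the highest signal and up to 2 not above it, in alphabetical order, per pathway group, and up to 2 genes of highest signal per marker list. Dll4, Hes5, Rbpj, Nrarp, Pecam1, Cdh5, Tek, Tie1, Des, Myh11, Ivl and Myod1 were chosen after their values were seen. Alternatives were other background percentiles and sets, 3 of 4 arrays, limma, quantile normalisation, no shared-sequence suffixes, the median probe set and leaving out each array.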

Additional observations from a re-analysis of the deposited data

Results flagged for a closer look

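Among 90 sets of 4 values, a gap test found 4 in which a single array stood away from the rest, and about 1 in 20 (4.5 of 90) would do so by chance. Dll1 1419204_at was 12.19 on array 1 on the log2 scale, against 11.93 to 11.94 on the others. The other sets lay apart on array 4. Dlk1 1449939_s_at was 13.76 against 13.59 to 13.61, Rbpjl 1421956_at was 9.44 against 5.48 to 6.15, below the threshold on every array, and the mural marker Des 1426732_at was 9.95 against 10.59 to 10.67.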

How the results depend on the processing

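The count of member genes above background was 9 of 10 by the reported rule and ran from 7 to 10 over the 12 alternatives, that of member probe sets from 13 to 16 of 19 (13 of 18 without shared-sequence suffixes) against 14, and that of the other pathway genes from 34 to 53 of 62 (37 of 55 without those suffixes) against 45. For all genes the count ran from 6321 to 11877 against 9391. None of these moved by over 1.5 times. Notch4 counted as above background with the 75th percentile as threshold, with a call on at least 3 arrays and without array 4, and not under the other 9 alternatives. Notch2 and Lfng were lost, at log2 margins of -0.45 and -3.32, when the median probe set stood for a gene, a setting that takes the dimmer of 2 probe sets. Jag1 1421105_at did not pass with the 99th percentile as threshold. Leaving out each array gave 9 to 10 member genes, 14 to 15 member probe sets, 45 to 47 pathway genes and 9426 to 9849 genes of all. The mean log2 signal of every member probe set moved by less than its SD under quantile normalisation. No paired analysis was possible because the 4 arrays form 1 group. The signals of Notch4 1449146_at lay close to the threshold and spread widely between arrays (SD 0.67 on the log2 scale). They could not be told from background with 4 arrays.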
